A study of Mus musculus with 10 samples.

Results

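The proteasome is the large protease that degrades ubiquitin-tagged proteins, and the transcripts of its constitutive subunits were examined in 10 mouse thymus and thymic tumour samples. Members were the genes on the MG_U74Av2 array whose symbol was Psma, Psmb, Psmc or Psmd followed by a number, without Psmb8, Psmb9 and Psmb10, the inducible catalytic subunits of the immunoproteasome. This gave 34 of 8252 annotated genes, represented by 44 probe sets, and the probe set with the highest mean over the 10 arrays stood for each of the 6 genes with several. Psmc3ip, whose symbol continues in letters and which encodes a meiotic recombination factor, was not taken as a member. Psma8 and Psmb11, the testis-specific and thymus-specific subunits, had no annotated probe set and were not analysed here.

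Ikaros is a zinc-finger transcription factor of lymphoid cells. Advanced thymic tumours (n = 6) were taken from IkL/L mice, which carry a hypomorphic Ikaros allele in homozygous form. Unfractionated thymocytes came from wild-type (n = 2) and from IkL/L (n = 2) donors aged 3 weeks on a C57Bl6 background. No age or background was given for the tumour mice, so tumour and age cannot be told apart. The labels do not say that the samples of a group came from different mice, and p-values measure only the spread between these samples, which may be technical.

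The proteasome consists of a barrel, the core particle, and a cap, the regulatory particle. In the core particle rings of alpha subunits form the gate and rings of beta subunits hold the proteolytic sites. In the regulatory particle a base of ATPases unfolds substrates and a lid removes their ubiquitin chains. Thymocytes use the proteasome as all cells do, for protein turnover and cell cycle control, and also to make the peptides shown on MHC class I molecules. The members fell into 14 core genes (7 alpha and 7 beta) and 20 regulatory genes (6 ATPases, 3 other base subunits, 8 lid subunits and 3 chaperones of base assembly).

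The values were intensities in arbitrary units, scaled by the authors to about the same trimmed mean on every array. Every array except tumour 6 had a Gapdh 3'/5' ratio, a measure of RNA integrity, between 0.92 and 1.06, and tumour 6 had 1.21. Tumours 1 to 5 were hybridized on a chip lot of their own, while tumour 6 shared its lot with the thymocytes. Tumours 4 and 6 were hybridized on the same day as the thymocytes. Fluidics runs were inferred from gaps of more than 10 minutes between hybridization times. Tumours 4 and 6 shared a run with wild-type 1 only, and no tumour shared a run with an IkL/L array. Over the marker lists, the summed intensity of thymocyte genes was 26849 to 40665 in tumours, 56782 to 62311 in wild-type and 52644 to 56690 in IkL/L thymocytes. At a limma adjusted p under 0.05, 4 of 10 tested thymocyte genes were lower in tumours than in both thymocyte groups, Cd4, Cd8a, Rag1 and Rag2. Ptcra was higher, with a log2 difference of 1.33. Cd3e, Cd3g and Cd3d, with log2 differences of -0.32, -0.20 and 0.09, did not pass, so the sum does not stand for all genes of the list. The summed myeloid intensity was 4629 to 8620 in tumours, 2062 to 2561 in wild-type and 2049 to 2125 in IkL/L thymocytes, and 5 of 8 tested myeloid genes were higher in tumours than in both thymocyte groups. Summed thymic epithelial intensity was 364 to 907 in tumours, 3679 to 5275 in wild-type and 1416 to 5284 in IkL/L preparations, with Foxn1 and Krt14 at the floor on most arrays. Most of the thymocyte sums was Ctsl, with 3904 and 3029 in wild-type and 860 and 4723 in IkL/L arrays. All 4 tested epithelial genes, Krt8, Krt18, Ccl25 and Ctsl, were called lower in tumours than in both thymocyte groups, with a median log2 difference of -2.87. The summed stromal intensity was 1392 to 2678 in tumours and 974 to 2092 over the thymocyte arrays, that of B cell genes 436 to 661 and 610 to 1097, and that of erythroid genes 1385 to 22962 and 7580 to 10424. At an adjusted p under 0.05, 3 of 7 tested stromal genes, Fn1, Dcn and Mgp, were higher in tumours than in both thymocyte groups and none lower. Of 5 tested B cell genes 1 was lower, and neither of the 2 tested erythroid genes passed. Over all tested probe sets 6.27% passed in this comparison. These are bulk samples, in which fewer cells of a type and less RNA per cell cannot be told apart, and the part of cell composition in the values below was not tested.

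No constitutive proteasome transcript changed past the criterion, an adjusted p under 0.05, in any comparison. Of the 34 genes 32 were tested, and 31 of these exceeded the median intensity of every one of the 10 arrays. Psmc4, an ATPase, had 7.3 to 41.4 in tumours, 20.6 and 71.8 in wild-type and 29.4 and 19.5 in IkL/L thymocytes. Psmd2, the scaffold subunit of the base, had 7.1 to 55.2 in tumours, 19.0 and 55.2 in wild-type and 28.2 and 17.9 in IkL/L thymocytes. Both stayed below the array median everywhere and were not tested, and several of their values lay under 16, the floor applied before log2.

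Most tested members were slightly brighter in tumours, by amounts that did not pass the test. Between tumours and wild-type thymocytes 26 of 32 members had a difference above 0, against 49.6% of all 7172 tested probe sets. The median log2 difference was 0.18 (a fold of 1.14), with members between -0.36 and 0.57, against -0.0063 over all probe sets. None of 32 had a limma adjusted p under 0.05, where 1.88% of all probe sets did, and the smallest adjusted p of a member was 0.204. An unadjusted p under 0.05 was reached by 1 member, Psmd6, against 15.8% of all. All tumours exceeded both wild-type arrays in 6 members, against 9.16% of all probe sets, and all lay below them in 1, against 8.76%. In 25 of 32 members the 95% interval lay within 2-fold in either direction, against 47.8% of all probe sets, and none differed by a log2 value past 1, as 10.4% of all did. The members were not matched to other probe sets in intensity, and their median SE was 0.23 against 0.30 over all. Nothing particular to the members is therefore drawn from such shares, here or in the comparisons below.

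Against IkL/L thymocytes the same tumours were higher in 29 of 32 members, where 45.7% of all probe sets had a difference above 0. The median log2 difference was 0.37 (a fold of 1.29), with members between -0.12 and 0.76, against -0.052 over all. No member had an adjusted p under 0.05, against 1.42% of all, and the smallest was 0.132. Without adjustment 7 members had p under 0.05, against 19.1% of all probe sets. These were Psma2, Psma4, Psma5, Psmb3, Psmc2, Psmd5 and Psmd7, all with higher values in tumours, against 9.59% of all probe sets in that direction. All 6 tumours exceeded both IkL/L arrays in 12 members, against 10.4% of all probe sets, and lay below them in 0, against 12.1%. The intervals of 23 members lay within 2-fold, against 43.5% of all, and none differed by a log2 value past 1, as 11.8% of all did. The comparisons with wild-type and with IkL/L thymocytes share the tumour arrays and are not independent.

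Between the thymocyte genotypes most members were dimmer in IkL/L cells. Only 8 of 32 had a difference above 0, against 54% of all probe sets, and the median log2 difference was -0.22 (a fold of 0.86) against 0.035 over all. No member passed the criterion, against 0.0139% of all probe sets, which is 1 probe set. Psmd4 alone had an unadjusted p under 0.05, against 3.21% of all probe sets in either direction and 1.16% with a lower value. Both IkL/L arrays were below both wild-type arrays in 17 members, against 18.2% of all probe sets, and above them in 2, against 21.2%. With 2 arrays a group, the intervals of 23 of 32 members lay within 2-fold, against 41.1% of all, and none differed by a log2 value past 1, as 4.5% of all did. The variance was pooled over all groups, so spread among the tumours entered these intervals and p-values, which do not measure thymocyte variability alone. In a limma fit of only the 2 thymocyte groups, 2 of 32 members had an unadjusted p under 0.05. No member and no other probe set passed the criterion in that fit.

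Set against the mean of both thymocyte groups, tumours were higher in 28 of 32 members, against 47.1% of all probe sets. The median log2 difference was 0.29 (a fold of 1.22), against -0.033 over all. No member had an adjusted p under 0.05, against 6.27% of all probe sets, and the smallest was 0.0735. An unadjusted p under 0.05 was reached by 6 members, against 23.6% of all probe sets. These were Psma4, Psmb3, Psmc2, Psmd6, Psmd7 and Psmd14, all with higher values in tumours, against 12.3% of all in that direction. Every tumour exceeded every thymocyte array in 3 members, Psma4, Psmd6 and Psmd7, against 5.45% of all, and none lay the other way, against 5.33%. The intervals of 29 of 32 members lay within 2-fold, against 59.1% of all, and no member differed by a log2 value past 1, as 9.4% of all did.

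With chip lot or hybridization day as a block, fewer tumours set these medians. With lot as a block, where tumour 6 alone links the tumours to the thymocytes within a lot, the median log2 difference was 0.087 against wild-type (19 of 32 members above 0), 0.34 against IkL/L and 0.22 against both groups. Over all tested probe sets it was then 0.057, 0.016 and 0.049. With hybridization day as a block, where tumours 4 and 6 are the link, the member medians were 0.33, 0.46 and 0.42. On day 1 arrays alone they are the same by design, because the other days held only tumours. A lot or day effect cannot be told apart here from the choice of tumours.

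**Figure D1:**
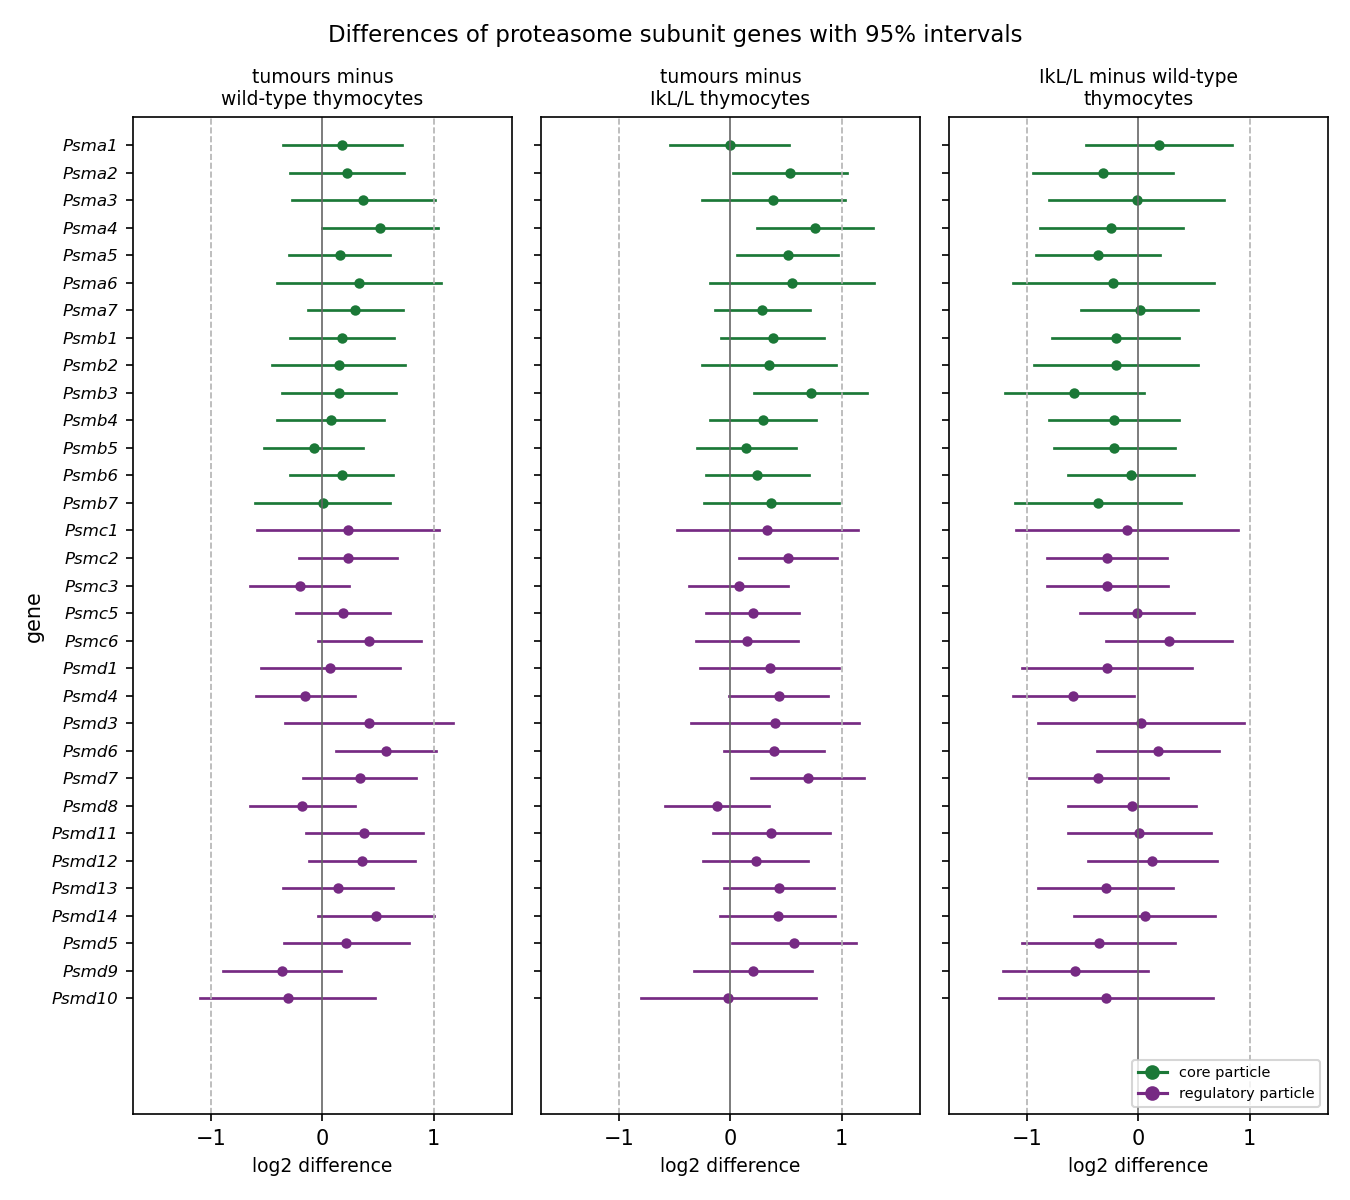
Log2 difference of each of 32 tested members (points) with its 95% interval (lines) for tumours minus wild-type, tumours minus IkL/L and IkL/L minus wild-type thymocytes, with dashed lines at 2-fold. Points lie mostly to the right of 0 for tumours, with medians of 0.18 and 0.37, and mostly to the left between thymocyte genotypes, with a median of -0.22.

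Core and regulatory particle genes had like medians in each comparison. Between tumours and wild-type thymocytes the median log2 difference was 0.18 over the core and 0.22 over the regulatory genes, with 13 of 14 and 13 of 18 above 0. Between tumours and IkL/L thymocytes it was 0.37 and 0.36, with 13 of 14 and 16 of 18 above 0. Between IkL/L and wild-type thymocytes it was -0.22 and -0.19, with 2 of 14 and 6 of 18 above 0. The core median minus the regulatory median was -0.048, 0.013 and -0.028 in these comparisons, each smaller than the within-group SD of that quantity between arrays, 0.095. It was above 0 in 4 tumours and below 0 in tumours 1 and 3.

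Array by array the core median minus the regulatory median was -0.13, 0.11 and -0.17 in tumours 1, 2 and 3, each larger in size than the SD of 0.095. On the other arrays it lay between -0.072 and 0.036. Relative to the mean of the 4 thymocyte arrays, the core median was 0.60 in tumour 4 and the regulatory median 0.56. Tumour 1 had the lowest core median of the tumours, 0.042, with 0.18 over the regulatory genes. In the remaining tumours the core median ran from 0.17 to 0.33 and the regulatory median from 0.20 to 0.34. The wild-type arrays had core medians of 0.069 and 0.11 and the IkL/L arrays -0.078 and -0.14. Over all tested probe sets these medians stayed between -0.093, in tumour 4, and 0.049, in tumour 6.

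**Figure D2:**
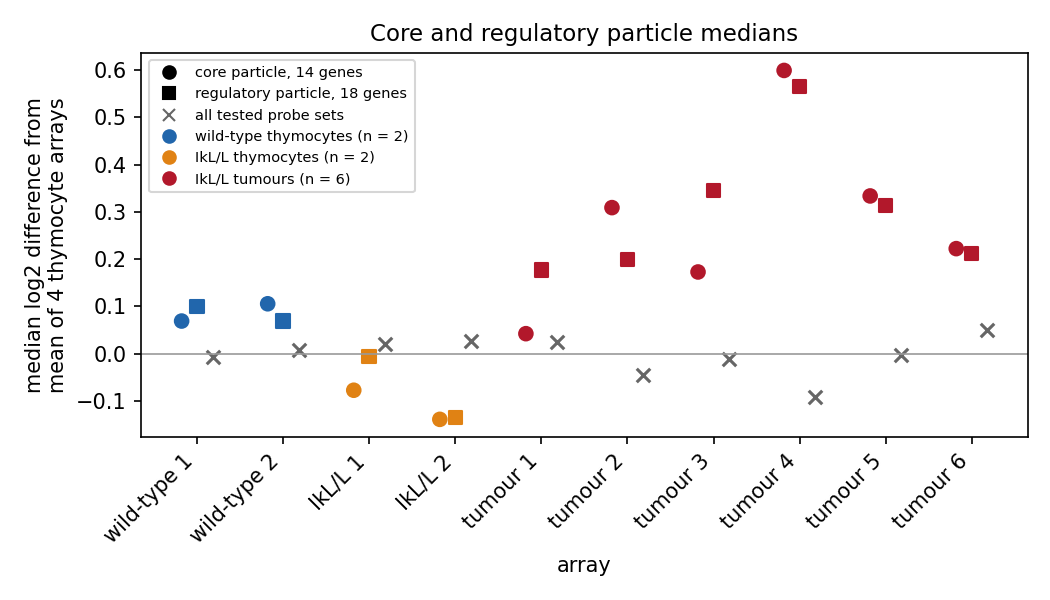
Median log2 difference from the mean of the 4 thymocyte arrays for 14 core genes (circles), 18 regulatory genes (squares) and all tested probe sets (crosses) on each array. Tumour 4 is highest for both particles, at 0.60 and 0.56, and the core and regulatory medians lie furthest apart in tumour 3, at 0.17 and 0.34.

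The promoters of members named below are shown because they carry short motifs that have been linked to proteasome genes, and the members differ in which they hold. The antioxidant response element, searched as TGACNNNGC, is bound by the factors Nfe2l1 and Nfe2l2, and Nfe2l1 is known to raise proteasome genes when the protease is inhibited. The letters CCGGAAG are the core of many ETS-factor sites. The windows below, from RefSeq on GRCm38.p6, hold the 250 bases before the annotated start, 5′ to 3′ on the gene's strand, with matches to either motif on either strand in capitals.
Psmb5, chr14:54617996-54618245, minus strand: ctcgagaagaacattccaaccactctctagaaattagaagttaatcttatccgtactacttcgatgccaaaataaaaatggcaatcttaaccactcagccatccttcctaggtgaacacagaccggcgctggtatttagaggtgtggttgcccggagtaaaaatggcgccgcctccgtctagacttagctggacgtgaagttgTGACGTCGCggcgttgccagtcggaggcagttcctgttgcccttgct
Psmb6, chr11:70525107-70525356, plus strand: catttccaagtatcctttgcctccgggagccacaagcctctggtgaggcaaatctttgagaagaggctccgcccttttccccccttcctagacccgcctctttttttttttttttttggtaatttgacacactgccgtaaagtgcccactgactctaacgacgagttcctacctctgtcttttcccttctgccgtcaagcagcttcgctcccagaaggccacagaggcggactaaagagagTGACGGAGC
Psmc6, chr14:45329574-45329823, plus strand: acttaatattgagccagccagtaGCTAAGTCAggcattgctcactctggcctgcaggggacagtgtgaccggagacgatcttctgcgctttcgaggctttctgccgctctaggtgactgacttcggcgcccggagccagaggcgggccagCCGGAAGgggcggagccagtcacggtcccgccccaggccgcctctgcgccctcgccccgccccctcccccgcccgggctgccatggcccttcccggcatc
Psmd6, chr14:14120946-14121195, minus strand: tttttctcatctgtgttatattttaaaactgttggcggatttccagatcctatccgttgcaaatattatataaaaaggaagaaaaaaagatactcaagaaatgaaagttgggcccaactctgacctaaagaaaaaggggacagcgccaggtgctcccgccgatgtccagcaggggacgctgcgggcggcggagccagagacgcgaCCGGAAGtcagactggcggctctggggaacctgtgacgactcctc

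In Psmb5 the response element letters stood 47 to 39 bases before the start and in Psmb6 9 to 1 bases before it. The annotated span of Psmb6 begins at 70525324, inside its printed window, so that its match lies within the span of the gene. Psmc6 held them 227 to 219 bases before the start, on the opposite strand, and the ETS letters 100 to 94 bases before it. In Psmd6 the ETS letters stood 45 to 39 bases before the start. In the full window, which also takes the 50 bases after the start, 28 members had an entry. TGACNNNGC was found in 5 of them (17.9%), against 14% of 27025 genes, and CCGGAAG in 10 (35.7%), 9 of them regulatory genes, against 9.93%. GGGCGG, the letters of an Sp1 box, stood in 18 (64.3%), against 38.2% of all genes. CCAAT stood in 11 (39.3%) against 41.1%, TATAAA in 3 (10.7%) against 15.7% and CACGTG in 2 (7.14%) against 8.09%. The palindrome of the nuclear respiratory factor stood in 1 (3.57%) against 1.07%. Between tumours and both thymocyte groups the median log2 difference was 0.21 over 5 tested members with TGACNNNGC and 0.34 over the 21 without, and 0.29 over 9 with CCGGAAG and 0.21 over the 17 without. Both strands were searched, and no matches overlapped in the windows shown. A match describes letters in these windows, not bound factors.

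The alpha ring had the largest median differences of the core, 0.30 between tumours and wild-type and 0.52 between tumours and IkL/L thymocytes. Psma4, whose yeast counterpart has a tail that helps to close the gate, read 1788, 1511, 1791, 2716, 2028 and 1648 in tumours 1 to 6. It read 1348 and 1277 in wild-type and 1155 and 1064 in IkL/L thymocytes. All tumours were above all thymocyte arrays, and tumour 4 was highest. The log2 difference from both thymocyte groups was 0.64 ± 0.19 (SE), a fold of 1.56 with an interval of 1.17 to 2.08 and a limma adjusted p of 0.0735. Psma5, another subunit of the ring, read 1262, 1221, 1570.0, 1713, 1650.0 and 1521 in tumours, 1436 and 1226 in wild-type and 1009 and 1058 in IkL/L thymocytes. Its tumours overlapped the wild-type arrays and were all above the IkL/L arrays, with log2 differences of 0.15 and 0.52 (adjusted p = 0.218 for the latter).

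Psma6 and Psma3, further ring subunits, varied most of the alpha genes among the tumours. Psma6 read 3071, 5190.3, 3337, 6246, 3141 and 6301 in tumours 1 to 6, 3162 and 3758 in wild-type and 2869.5 and 3026 in IkL/L thymocytes. Tumours 2, 4 and 6 were above every thymocyte array and tumours 1, 3 and 5 lay within the range of the thymocytes. Psma3 was highest in tumour 6, at 6213. Psma1 was the only core gene without a higher mean log2 value in tumours than in IkL/L thymocytes, with a difference of -0.01.

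The 3 catalytic genes of the beta ring had log2 differences between tumours and both thymocyte groups of 0.03, 0.21 and 0.18, each below the member median of 0.29. Psmb5, the chymotrypsin-like subunit and main target of the inhibitor bortezomib, read 878, 1121, 1061, 1115, 1109 and 816 in tumours, 1026 and 1102 in wild-type and 920.0 and 909 in IkL/L thymocytes. The tumours spanned all thymocyte arrays, with a fold of 1.02 against both groups and an interval of 0.801 to 1.31 (adjusted p = 0.922). Psmb6, the caspase-like subunit, read 1322, 1463, 1806, 1408, 1712 and 1321 in tumours, 1169.8 and 1499 in wild-type and 1205 and 1323 in IkL/L thymocytes. Its groups overlapped, and the log2 difference from both thymocyte groups was 0.21 with an interval of -0.16 to 0.57. Psmb7, the trypsin-like subunit, read 742, 1200.2, 1109, 1412, 1220.4 and 769 in tumours, 1034 and 1054 in wild-type and 781 and 843 in IkL/L thymocytes. Tumours 1 and 6 lay below all thymocyte arrays and the other 4 above them, and the log2 difference from both groups was 0.18 with an interval of -0.29 to 0.66.

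Of the structural beta subunits, Psmb3 read 2962, 3315, 3464, 4643, 3551 and 2907 in tumours, 3206 and 2992 in wild-type and 2421 and 1786 in IkL/L thymocytes. The tumours overlapped the wild-type arrays and exceeded the IkL/L arrays, with a log2 difference of 0.15 ± 0.23 from the former (adjusted p = 0.813) and of 0.72 ± 0.23 from the latter (adjusted p = 0.137). Psmb1, which also lacks a catalytic site, read 1205, 1404, 1324, 1909.7, 1320.2 and 1385 in tumours. It read 1223 and 1270.0 in wild-type and 1047 and 1121 in IkL/L thymocytes, so that only tumour 1 fell within the range of the thymocytes. The log2 difference from both thymocyte groups was 0.28 (adjusted p = 0.334).

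**Figure D3:**
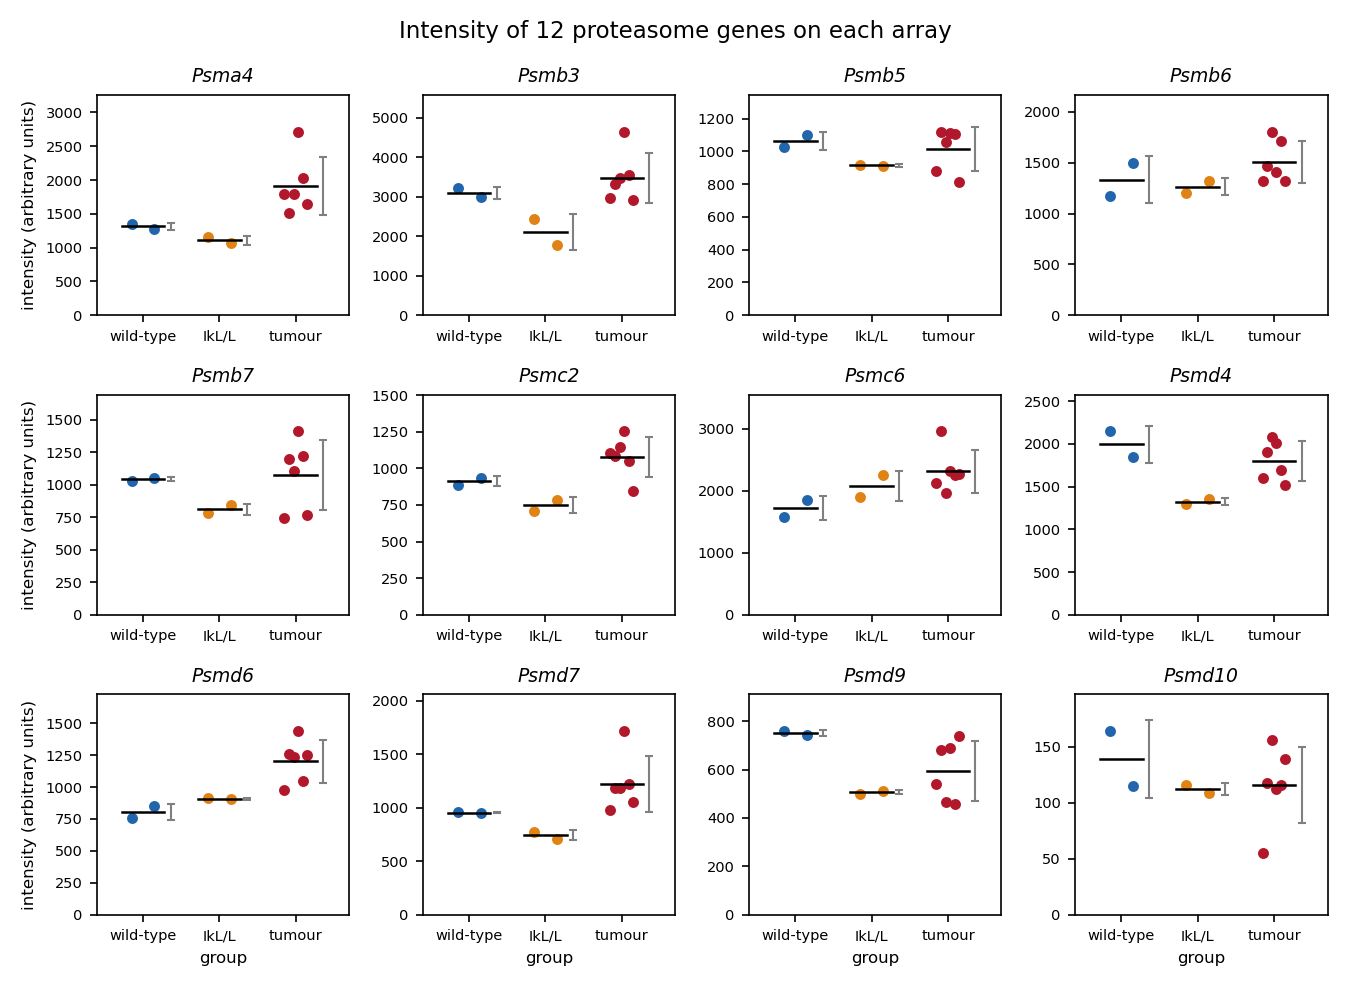
Intensity in arbitrary units of 12 proteasome genes on each array, with the group mean (black line) and SD (grey bar) for wild-type (n = 2), IkL/L (n = 2) and tumour (n = 6) samples. Psma4, Psmd6 and Psmd7 show every tumour above every thymocyte array, while the tumours of Psmb5 span both thymocyte groups.

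The ATPases of the base, which unfold substrates, had median log2 differences of 0.23 and 0.20 between tumours and wild-type or IkL/L thymocytes over 5 tested genes. Psmc2 read 1102, 1081, 1144, 1252, 1051 and 843 in tumours, 887 and 937 in wild-type and 712 and 787 in IkL/L thymocytes. Tumour 6 lay below both wild-type arrays and the other tumours above all thymocytes, with a log2 difference from IkL/L of 0.52 ± 0.20 (adjusted p = 0.206). Psmc6 read 2122, 2959, 1958, 2314, 2255 and 2277 in tumours, 1582 and 1856 in wild-type and 1905 and 2251 in IkL/L thymocytes. It had the highest log2 difference of any member between IkL/L and wild-type thymocytes, 0.27 ± 0.25 (adjusted p = 0.999), with both IkL/L arrays above both wild-type arrays. Psmc1 was the member of widest spread over the tumours, from 484 in tumour 6 to 1431 in tumour 4, a ratio of 2.96.

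Of the other base subunits, Psmd4, a ubiquitin receptor, had the lowest difference between the thymocyte genotypes. It read 1599, 1908, 2078, 2013, 1691 and 1517 in tumours, 2146 and 1842 in wild-type and 1294 and 1358 in IkL/L thymocytes. Both IkL/L arrays were below every other array, with a log2 difference from wild-type of -0.59 ± 0.24 and an interval of -1.13 to -0.04 (unadjusted p = 0.0367, adjusted p = 0.999). Psmd1, a scaffold of the base, read 1328, 882, 1394, 1670.4, 1099 and 1552 in tumours, 1411 and 1074 in wild-type and 1215 and 842 in IkL/L thymocytes. Its groups overlapped in each comparison, and the log2 difference between tumours and both thymocyte groups was 0.21 (adjusted p = 0.589).

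The lid, which carries the deubiquitinase Psmd14, had median log2 differences of 0.36 and 0.39 between tumours and wild-type or IkL/L thymocytes over 8 genes. Psmd6, a structural lid subunit, read 977, 1261, 1235, 1438, 1046 and 1251 in tumours, 760.4 and 848 in wild-type and 913 and 903 in IkL/L thymocytes. Every tumour lay above every thymocyte array. Its log2 difference from wild-type, 0.57 ± 0.20 with an interval of 0.12 to 1.02, was the highest of any member in that comparison (adjusted p = 0.204). Psmd7, the partner of the deubiquitinase, read 979, 1182, 1184, 1717, 1227 and 1051 in tumours, 960.5 and 949.7 in wild-type and 777 and 711 in IkL/L thymocytes. Tumours again did not overlap the thymocytes, with a log2 difference from both groups of 0.51 ± 0.18 (adjusted p = 0.125). Psmd8 lay the other way, with 812, 681, 856, 1052, 745 and 745 in tumours, 1011 and 828.5 in wild-type and 870.4 and 885 in IkL/L thymocytes. Its log2 difference from IkL/L thymocytes, -0.12 ± 0.21, was the lowest of any member (adjusted p = 0.776).

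The chaperones of base assembly, which are not part of the finished particle, had differences of both signs. Psmd5 read 509, 761.8, 916, 991, 722 and 737 in tumours, 640.1 and 662 in wild-type and 505 and 511 in IkL/L thymocytes, and tumour 1 lay among the IkL/L arrays. Psmd9 read 540.0, 682, 464, 688, 457 and 739 in tumours, 759 and 742 in wild-type and 500.1 and 513 in IkL/L thymocytes. All tumours and both IkL/L arrays were below both wild-type arrays, with log2 differences of -0.36 ± 0.24 and -0.57 (adjusted p = 0.517 and 0.999). Psmd10, also called gankyrin, lay above the array median on 9 of 10 arrays. It read 55.3, 117, 156, 112, 115 and 139 in tumours, 164 and 115 in wild-type and 116 and 108 in IkL/L thymocytes, with groups that overlapped and a log2 difference of -0.17 ± 0.28 from both (adjusted p = 0.744).

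Tumour 4 was the array with the highest value for 22 of 32 members. It had 31 of 32 above the thymocyte mean, where 44.5% of all tested probe sets were. The other tumours had 20 to 26 members above that mean, the wild-type arrays 22 and 24, and the IkL/L arrays 12 and 5. Over all tested probe sets the shares above it were 46.8% to 53.3%, 49% and 51.4%, and 53.4% and 54.3%. Without tumour 4 the median log2 difference was 0.12 from wild-type, 0.28 from IkL/L and 0.23 from both groups, with 23, 29 and 27 of 32 members above 0. Members with an unadjusted p under 0.05 against both groups then numbered 3 instead of 6. Such members also numbered 3 without tumour 5, and 4 to 8 without any other tumour. The share over all probe sets at that threshold was not taken for these fits. At an adjusted p under 0.05, calls over all probe sets went from 450 to 352 without tumour 4 and 256 without tumour 5, and to 781 without tumour 6. The drop among members cannot be told apart from a general one. Tumour 4 had the lowest median intensity over all probe sets, 79.75. Its summed myeloid, thymocyte and stromal intensities, 5266, 27874 and 1544, lay within the range of the other tumours. The sums of its erythroid, thymic epithelial and B cell genes, 1385, 364 and 436, were the lowest of the tumours. The part of these in its member values was not tested. Without tumour 6, the array of highest Gapdh ratio, the medians were 0.22, 0.38 and 0.29.

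**Figure D4:**
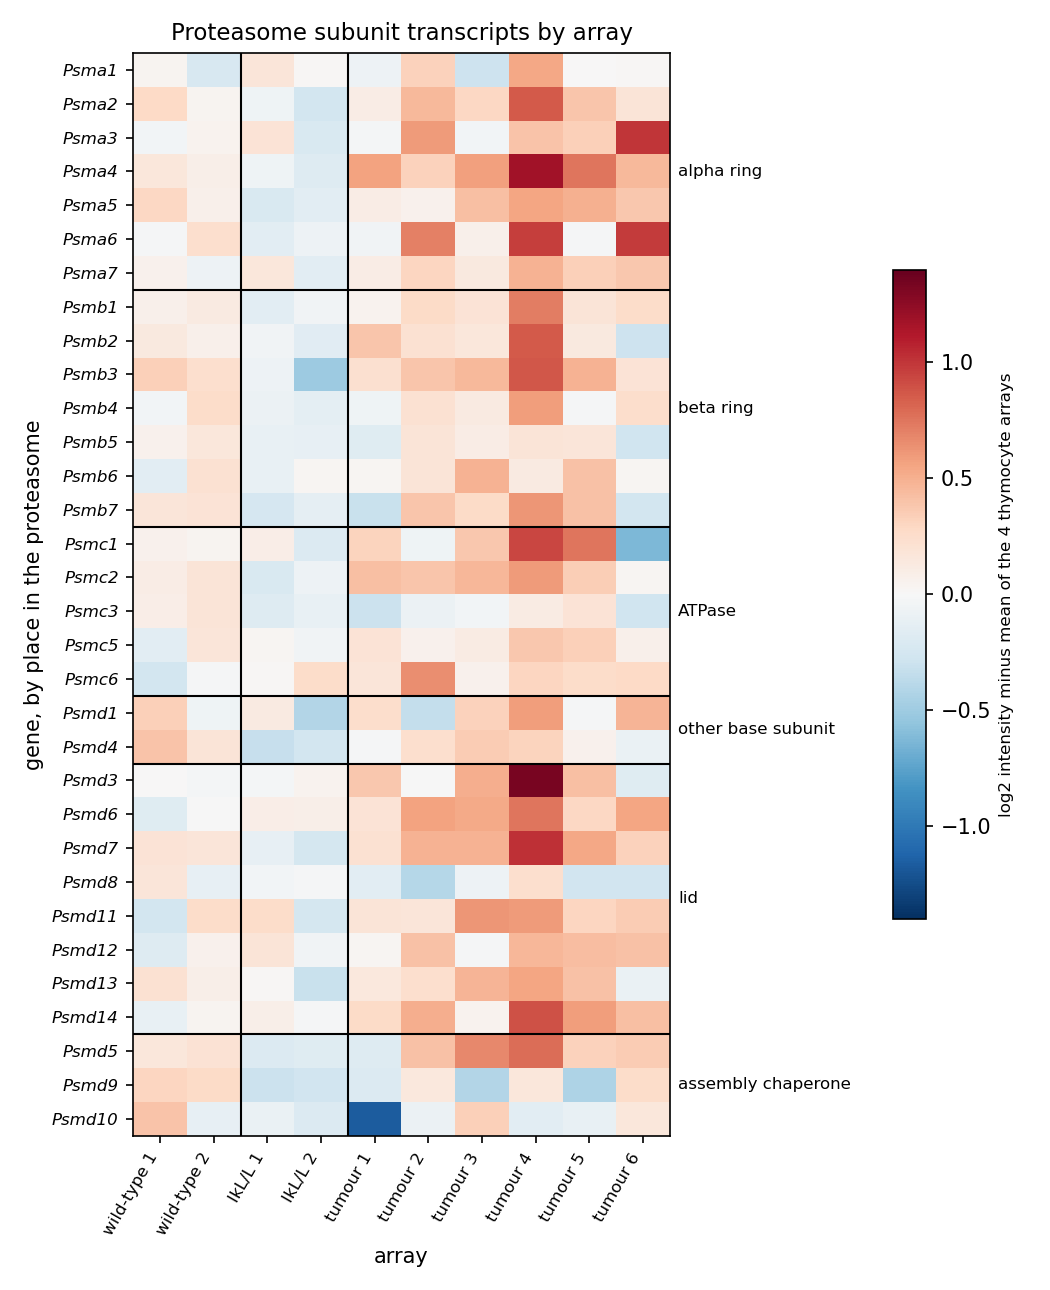
Log2 intensity of 32 members on each array minus the mean of the 4 thymocyte arrays, on a colour scale from blue (lower) to red (higher), with genes ordered by place in the proteasome. The column of tumour 4 is reddest, being the highest array for 22 members, and the IkL/L columns are palest or blue.

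The members had a smaller median spread over the tumours than all tested probe sets together. The SD of log2 intensity over the 6 tumours had a median of 0.24 over the members and 0.39 over all tested probe sets. Among members it ran from 0.13 for the ATPase Psmc5 to 0.57 for Psmc1. Psmc5 differed by a ratio of 1.24 between its lowest and highest tumour and the alpha subunit Psma7 from 1266 to 1641, while the lid subunit Psmd3 ran from 1474 to 4151, a ratio of 2.82. The members were not matched to other probe sets in intensity, and nothing particular to them is drawn from this.

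Genes around the constitutive proteasome were compared between tumours and both thymocyte groups, where 6.27% of all 7172 tested probe sets were called. In lists this short, few or no calls do not set the genes apart from that share. The 4 measured genes of the immunoproteasome and its activator had a median log2 difference of 0.32 between tumours and both thymocyte groups, with none called. The largest was Psmb10, an inducible catalytic subunit, at 0.79 (adjusted p = 0.0738), with 1335 to 3085 in tumours, 1570.0 and 1455 in wild-type and 1121 and 1145 in IkL/L thymocytes. None of 10 other activators, assembly factors and deubiquitinases was called (median 0.22), none of 10 tested genes of ubiquitin conjugation (median -0.12), and none of 6 genes of p97 and its receptors (median 0.09). None of 7 tested transcription factors linked to proteasome genes was called (median -0.11), and Nfe2l1 had mean intensities of 520 in tumours, 477 in wild-type and 574 in IkL/L thymocytes. Of 8 subunits of the cytosolic chaperonin, which folds actin and tubulin, Cct8 was called higher in tumours, with a log2 difference of 1.42 (adjusted p = 0.0102) and a list median of 0.44. The summed chaperonin intensity was highest in tumour 4, at 18660, and lowest of the tumours in tumour 6, at 9861.

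For several members the probe sets of a gene did not give the same difference. Psmd11 had a log2 difference between tumours and IkL/L thymocytes of 0.37 by its brightest probe set and -0.95 by another. Psmb5 had -0.25 by its other probe set between tumours and both thymocyte groups. Psmc3 had -0.06, 0.01 and -0.23 by its 3 tested probe sets. The probe sets of 7 members, Psma3, Psmb4, Psmb5, Psmb7, Psmc3, Psmd9 and Psmd12, carry a suffix that marks shared or fewer probes, so their values may take in related transcripts.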

How the data were processed

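Total RNA of 10 samples was hybridized to MG_U74Av2 arrays with 12488 probe sets. Per the file headers, the authors deposited intensities on a linear scale; no source used here names the software that made them. The trimmed mean of every array was near 300, a scaling attributed to the authors, and no further scaling was applied. Values under 16 were raised to 16, which touched 15.4% to 24.2% of an array, and log2 was taken. Probe sets above the array median on at least 2 arrays were tested, 7172 in all. limma 3.58.1 (R 4.3.3) was fitted across all 10 arrays with a mean for each group, followed by eBayes, with 7 residual and 3.17 prior degrees of freedom. Benjamini-Hochberg adjustment ran over the 7172 probe sets of a comparison, at 0.05. Folds are 2 to the power of the log2 difference. Group sizes were 6, 2 and 2, and the number of arrays limits the precision.

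Members, gene lists and alternatives were chosen with earlier results of these data known. Named in full were the 3 catalytic beta genes, the 2 members of each class with the smallest unadjusted p between tumours and both thymocyte groups, and the highest and lowest member of each comparison; Psma3, Psma6, Psmc1 and Psmd3 were named after their values were seen, as the members of widest spread. Promoters came from the RefSeq table on GRCm38.p6. The procedure was tested on simulated data. Alternatives covered the floor, the filter, scaling, probe set choice, the variance model, chip lot, hybridization day and fluidics run as blocks, and each array left out.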

Additional observations from a re-analysis of the deposited data

Results flagged for a closer look

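In 2 of 36 groups examined over the members and particle medians, 1 array lay apart from the others by more than the 95% critical value of Dixon's ratio, 0.625 for 6 arrays; chance gives about 1 in 20 groups. For single members the ratio was taken on log2 intensity, while the values printed here are intensities. Psmb1, a structural beta subunit, was highest in tumour 4 at 1909.7, with the nearest tumour at 1403.7 and a gap of 0.668 of the log2 range. Psmd10, an assembly chaperone, was lowest in tumour 1 at 55.3, with the nearest tumour at 111.9 and a gap of 0.679 of the log2 range.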

How the results depend on the processing

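No paired analysis was possible because the replicate numbers of the groups only follow the order of deposition. No member was called between tumours and wild-type or between thymocyte genotypes under any alternative. Over all tested probe sets these fits called 4 to 322 and 0 to 15. Between tumours and IkL/L thymocytes 4 of 32 members were called with array weights, against 739 of all 7172 probe sets. These were Psma4, Psmb3, Psmc2 and Psmd7 (limma adjusted p 0.0358, 0.0372, 0.049 and 0.0346). Between tumours and both thymocyte groups Psma4 was called with a variance trend (1 of 32 members, limma adjusted p 0.0402), against 587 of all 7172 probe sets. Psma4 and Psmd7 were called there with array weights (2 of 32 members, adjusted p 0.0337 and 0.0493), against 921 of all 7172. The median member difference kept its sign under every alternative. With fluidics run as a block it was 0.24 between tumours and wild-type, 0.46 between tumours and IkL/L and 0.36 against both groups. That fit joins the tumours to the thymocytes through wild-type 1 alone. With hybridization day as a block the median member difference was 0.33 between tumours and wild-type and 0.42 against both groups. Day 1 arrays alone (chosen after seeing the data) give the same values by design, because the other days held only tumours. Scaling to equal medians gave 0.51 between tumours and IkL/L and -0.36 between thymocyte genotypes, and moved the medians of all probe sets to 0.09 and -0.11. Leaving out each array in turn gave 0.117 to 0.218 against wild-type, 0.28 to 0.405 against IkL/L, 0.231 to 0.342 against both and -0.241 to -0.167 between genotypes.

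The core minus regulatory median, main values -0.048, 0.013, -0.028 and -0.0017 (tumours against wild-type, tumours against IkL/L, IkL/L against wild-type, tumours against both), had no settled sign. It was 0.081 against wild-type with lot as a block, and 0.13 against IkL/L and 0.15 against both with day as a block or day 1 alone. Between genotypes it was 0.12 with the mean of all probe sets and -0.16 without the assembly chaperones. Leaving out each array gave -0.099 to 0.000156, -0.0568 to 0.12, -0.1575 to 0.0492 and -0.0503 to 0.0379.

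The sign of single members turned as follows against both thymocyte groups. Psmb5 was -0.11 with the mean of probe sets, -0.27 with lot and -0.049 with day as a block or day 1 alone. Psmb7 was -0.26 with lot, and Psmd4 -0.098 with lot and -0.059 with fluidics run. Psmd10 was 0.16 with lot, 0.0078 with day or day 1 alone and 0.033 without tumour 1, the highest of -0.2953 to 0.033 over the arrays left out in turn. Psmd9 was 0.26 with lot, 0.21 with day or day 1 alone and 0.18 with run. Against IkL/L thymocytes Psmd8 was 0.022 with median scaling and 0.012 with day or day 1 alone. The values with lot are those of tumour 6 alone, and the values with day those of tumours 4 and 6. A lot or day effect therefore cannot be told apart from the choice of tumours. The cause of the other turns was not tested.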
